A study of Mus musculus with 4 samples.

Results

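In 4T07 mouse mammary carcinoma cells, 29 of 24421 genes formed a group with clearly more RNA in the libraries labelled Six2 than in their controls. The 29 were chosen by the measured values themselves. A gene entered when the lower of its Six2 values was at least 1.5 RPKM (reads counted on a gene, divided by its length and by the size of the library) and the higher of its control values was at most 0.5 times that. In all, 34 genes met both thresholds, and 5 of them (Hspb1, Krt76, Csn3, Il33 and Psmb8) are left out of the account. Because the values in these 4 libraries selected the members, the differences below describe them and carry no test. The 2 Six2 libraries came from 4T07-Six2 cells, whose genotype is given as Six2 overexpression, and the 2 control libraries came from 4T07-CTL cells, with the genotype control. Both are 4T07, a mammary carcinoma line of strain Balb/cfC3H, grown on plastic at 37 °C and lysed 48 h after plating. The labels do not say how the Six2 cells were made, whether they are 1 clone or what the control cells carry. Sequencing covered polyadenylated RNA from a strand-marking library kit.

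Six2 is a homeobox transcription factor that keeps nephron progenitors of the developing kidney in an undifferentiated state. With partners of the Eya family it acts in several embryonic tissues. Its own row in the table did not show the labelled overexpression, with 0.0285 and 0 RPKM in the Six2 libraries against 0 and 0 RPKM in the control libraries. How reads from an introduced coding sequence were handled is unknown from the labels, and "Six2 library" stands for the label. The group is mixed in kind: 21 members are protein-coding genes, 3 are long intergenic RNAs, 3 are miRNA loci and 2 are small nucleolar RNA (snoRNA) loci. The coding members include secreted ligands and enzymes, a cartilage collagen, membrane transporters and channels, and proteins of the cytoskeleton, the cilium and vesicle traffic.

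Read totals recovered from the table were 49910629 and 81524250 for Six2 replicates 1 and 2, against 43110985 and 41881864 for control replicates 1 and 2. Where a gene is at 0, as many as 3 reads remain possible, or for a gene 1 kb long 0.0601 and 0.0368 RPKM in the Six2 libraries and 0.0696 and 0.0716 RPKM in the control libraries. Shorter genes have a higher limit, and it covers counting error only. The labels do not say that replicates came from separate cultures, so the spread between them may be technical. Of the epithelial keratins, Krt8 had 971.5 and 607.2 RPKM in Six2 libraries, against 1059 and 742.1 RPKM in control libraries. The epithelial cadherin Cdh1 had 0.186 and 0.103 RPKM in Six2 libraries, against 14.59 and 8.403 RPKM in control libraries. Krt19 had 0.802 and 0.4642 RPKM in Six2 libraries, against 8.762 and 4.257 RPKM in control libraries (limma adjusted p = 0.119). Epcam, under 1 RPKM in all 4, had 0.2139 and 0.08332 RPKM in Six2 libraries, against 0.7203 and 0.6835 RPKM in control libraries. Of 9 markers of mammary carcinoma epithelium 6 were tested, 1 of them above 0 on the log2(RPKM + 1) difference, with a median of -1.19. Krt7 alone was called, with 0.4674 and 0.6342 RPKM in Six2 libraries against 10.81 and 8.671 RPKM in control libraries (limma adjusted p = 0.0397). The marker above 0 was Elf3, an epithelial transcription factor, with 4.618 and 3.778 RPKM in Six2 libraries against 2.192 and 2.185 RPKM in control libraries (limma adjusted p = 0.145). The summed level of the 9 was 1670 and 1000 RPKM in Six2 libraries and 1900 and 1240 RPKM in control libraries, so the groups overlapped. Krt8 and Krt18 made up most of this sum, so it does not describe the other markers. Krt18 had 691.2 and 389.2 RPKM in Six2 libraries, against 799.9 and 473.8 RPKM in control libraries. The part of these marker differences in the members' values was not tested. The summed level of 10 leukocyte markers was 9.82 and 5.35 RPKM in Six2 libraries and 13.6 and 8.22 RPKM in control libraries. That of 8 fibroblast markers was 7.44 and 5.18 RPKM in Six2 libraries and 10.1 and 5.27 RPKM in control libraries. Endothelial, adipocyte, myoepithelial and erythroid lists summed to at most 0.269 RPKM in a Six2 library and at most 1.23 RPKM in a control library.

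The members were low to moderate in level. In bulk RNA, a larger share of cells with a transcript and more of it per cell cannot be told apart. Their mean in the Six2 libraries ran over 1.77 to 43.1 RPKM with a median of 3.77, and their mean in the control libraries over 0.179 to 10.7 RPKM with a median of 1.05. Over all 10654 genes tested the medians of these means were 12.8 RPKM in Six2 libraries and 13.1 RPKM in control libraries. Only Lipg, Add2 and Kcnk2 reached 10 RPKM in both Six2 libraries, and 13 members were under 1 RPKM in both control libraries. The lower Six2 value stood 2.03 to 8.06 times above the higher control value, with a median of 2.41. This ratio was 4 or more in 4 members, 3 or more in 8 and under 2.5 in 16. Differences were also taken between mean log2(RPKM + 1) values, where the 1 added makes the change of a low gene look smaller. These ran over 0.71 to 2.68 with a median of 1.13, beside a median of -0.0119 over all genes tested.

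**Figure D1:**
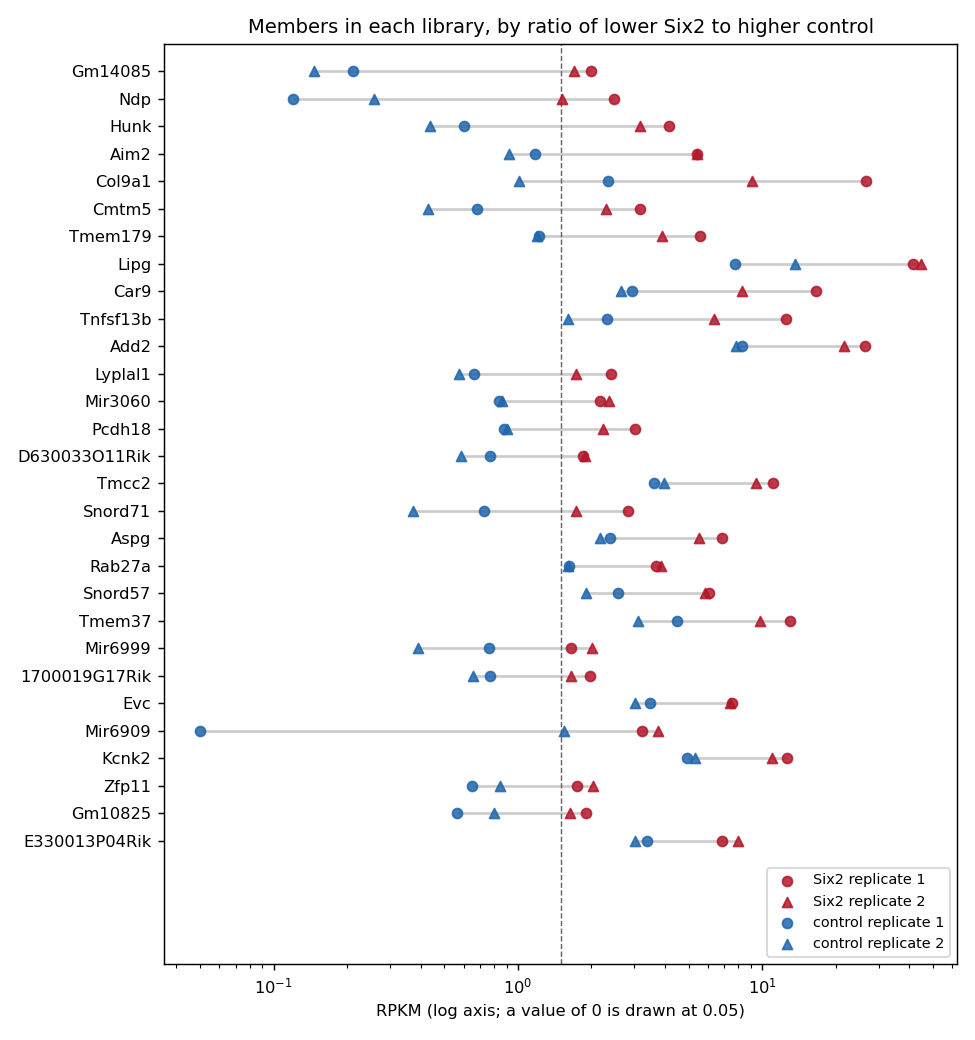
RPKM of each of the 29 members in the 4 libraries on a log axis, with Six2 replicates in red and control replicates in blue (circles for replicate 1, triangles for replicate 2). Members run down the page by the ratio of the lower Six2 to the higher control value, from 8.06 for Gm14085 to 2.03 for E330013P04Rik, and the dashed line marks the threshold of 1.5 RPKM; the value of 0 for Mir6909 is drawn at 0.05.

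The rule fixes that no member's groups overlap, and over all tested genes 21.9% had both Six2 values above both control values. Both thresholds were met by 0.319% of tested genes, and the same thresholds turned round, for genes lower in the Six2 libraries, by 1.41%. By limma on log2(RPKM + 1) with Benjamini-Hochberg adjustment, 0.0282% of tested genes were called higher in the Six2 libraries. None of the 29 members was among them, and the smallest adjusted p of a member was 0.0592. At an unadjusted p under 0.05 all 29 passed, beside 7.36% of tested genes that did so in the higher direction. With limma-voom on recovered reads 0 members passed after adjustment and 27 without it. Nothing is read from these counts, since the same contrast chose the members. The limma fit had no replicate block, and with such a block 4639 of the 10654 tested genes were called in either direction. A gene given here as not called is therefore not shown to be unchanged. All 29 passed the filter for testing, the 13 low ones through their Six2 values alone.

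Several genes lay close to the thresholds. By the ratio, the members just inside were E330013P04Rik at 2.03, Gm10825 at 2.05, Zfp11 at 2.06, Kcnk2 at 2.08 and Mir6909 at 2.098. Just outside it were Msrb2 at 1.997, Spry4 at 1.981, Batf at 1.963, Mir343 at 1.958 and Cd300lb at 1.956. Cd300lb had 21.33 and 13.3 RPKM in Six2 libraries, against 6.798 and 6.135 RPKM in control libraries, which is a higher level than that of most members. Spry4, an inhibitor of receptor tyrosine kinase signalling, had 9.481 and 10.14 RPKM in Six2 libraries, against 3.517 and 4.786 RPKM in control libraries. Batf, a transcription factor of the AP-1 superfamily, had 7.137 and 4.885 RPKM in Six2 libraries, against 2.489 and 1.981 RPKM in control libraries. Msrb2, a methionine sulfoxide reductase, had 10.13 and 10.33 RPKM in Six2 libraries, against 4.733 and 5.072 RPKM in control libraries. By the level, the lower Six2 value was 1.512 RPKM for Ndp, 1.634 for Gm10825, 1.642 for Mir6999, 1.643 for 1700019G17Rik and 1.699 for Gm14085. On the other side of that threshold it was 1.491 RPKM for Eya1 and 1.480 for Tap1, both also left out by name. Those were followed by Mir677 at 1.415 RPKM, Inpp5d at 1.319 RPKM and 2610524H06Rik at 1.298 RPKM.

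Secreted and matrix proteins among the members were Ndp, Col9a1, Lipg and Tnfsf13b. Ndp (chrX:16885521-16911774, minus strand, GRCm38) encodes norrin, a secreted cystine-knot ligand that activates Wnt signalling through Fzd4, the co-receptor Lrp5 and the tetraspanin Tspan12, and is known for its role in retinal blood vessels. It had 2.48 and 1.512 RPKM in Six2 libraries, against 0.1196 and 0.2586 RPKM in control libraries, which rest on 240 and 239 reads against 10 and 21. Both Six2 values were more than 5 times both control values, and the Six2 replicates differed 1.64 times. Its co-receptor Lrp5 had 26.88 and 24.89 RPKM in Six2 libraries, against 27.81 and 26.49 RPKM in control libraries. Fzd4, the receptor, had 0.2882 and 0.3096 RPKM in Six2 libraries, against 0.5539 and 0.5248 RPKM in control libraries. Tspan12 had 0.4828 and 0.3842 RPKM in Six2 libraries, against 0.02795 and 0.04795 RPKM in control libraries. Both were too low to be tested, Tspan12 with no overlap in the same direction as Ndp and Fzd4 with no overlap in the other. The promoter of Ndp is shown because only Gm14085 had a larger ratio. The window runs from 250 bases before to 50 bases after the RefSeq start, at chrX:16911725-16912024 on the minus strand of GRCm38.p6, and has 43.0% G or C. Capitals mark a match to TATAAA on the opposite strand, at base 125 of the window.
Ndp: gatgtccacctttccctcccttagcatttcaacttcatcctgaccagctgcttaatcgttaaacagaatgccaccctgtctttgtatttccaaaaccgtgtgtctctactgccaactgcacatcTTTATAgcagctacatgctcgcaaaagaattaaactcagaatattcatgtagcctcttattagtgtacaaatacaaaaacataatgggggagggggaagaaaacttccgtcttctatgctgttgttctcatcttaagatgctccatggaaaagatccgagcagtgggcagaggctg

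Col9a1 (chr1:24177610-24252684, plus strand) encodes a chain of type IX collagen, which decorates the surface of cartilage fibrils. It had 26.52 and 9.098 RPKM in Six2 libraries, against 2.34 and 1.014 RPKM in control libraries, a difference of 2.68 on the log2(RPKM + 1) scale and the largest among the members. Replicate 1 was the higher in each group, 2.91 times in Six2 libraries. Its partner chains did not share this level. Col9a2 was under 0.04 RPKM in all 4 libraries. Col9a3 had 0.8026 and 0.2672 RPKM in Six2 libraries, against 0.5135 and 0.4866 RPKM in control libraries. Col2a1, the main cartilage collagen, was under 0.4 RPKM everywhere, and Col11a1 was listed at 0 throughout. Sox9, a transcription factor that drives cartilage genes, had 66.2 and 56.76 RPKM in Six2 libraries, against 52.9 and 51.08 RPKM in control libraries (limma adjusted p = 0.396).

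Lipg (chr18:74939322-74961263, minus strand) encodes endothelial lipase, a secreted phospholipase that acts on high-density lipoproteins. It was the most abundant member, with 41.41 and 44.87 RPKM in Six2 libraries against 7.767 and 13.61 RPKM in control libraries. Here the Six2 replicates were close and the control replicates were the ones apart. The related lipases Lpl and Lipc stayed under 0.3 RPKM in all libraries. Angptl4, an inhibitor of lipoprotein lipase, had 2.074 and 4.415 RPKM in Six2 libraries, against 0.6704 and 2.459 RPKM in control libraries, so its groups overlapped (limma adjusted p = 0.482).

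Tnfsf13b (chr8:10006467-10039072, plus strand) encodes BAFF, a cytokine of the tumour necrosis factor superfamily that sustains B cells. It had 12.54 and 6.343 RPKM in Six2 libraries, against 2.322 and 1.603 RPKM in control libraries. Both Six2 values were higher, and they differed 1.98 times from each other. The receptor genes Tnfrsf13b and Tnfrsf17 were listed at 0 in all 4 libraries, and Tnfrsf13c did not exceed 0.07302 RPKM. Tnfsf13, which encodes the related ligand APRIL, was too low to be tested, at 0.6444 and 0.4676 RPKM in Six2 libraries and 1.782 and 0.9528 RPKM in control libraries. Its groups did not overlap either, with the Six2 libraries lower.

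Membrane proteins were the next set. Gm14085, which RefSeq names Slc28a2b (chr2:122484941-122528040, plus strand), belongs to the family of sodium-coupled nucleoside transporters. It had 1.993 and 1.699 RPKM in Six2 libraries, against 0.2109 and 0.1468 RPKM in control libraries, or 372 and 518 reads against 34 and 23. Its ratio of 8.06 was the largest, and each pair of replicates lay within 1.5 times. The family members Slc28a1, Slc28a2 and Slc28a3 were near 0 in all 4 libraries, none above 0.022 RPKM. How reads shared with the closely related Slc28a2 were assigned is not given in the sources used here. By far more abundant among the nucleoside carriers listed was the equilibrative transporter Slc29a1, with 146.1 and 121.9 RPKM in Six2 libraries and 161.8 and 133.7 RPKM in control libraries (limma adjusted p = 0.708). The promoter of Gm14085 is shown because the gene led the group by ratio. Its window, at chr2:122484691-122484990 on the plus strand, has 40.0% G or C, and capitals mark a match to CCAAT at base 223, before the start of the transcript.
Gm14085: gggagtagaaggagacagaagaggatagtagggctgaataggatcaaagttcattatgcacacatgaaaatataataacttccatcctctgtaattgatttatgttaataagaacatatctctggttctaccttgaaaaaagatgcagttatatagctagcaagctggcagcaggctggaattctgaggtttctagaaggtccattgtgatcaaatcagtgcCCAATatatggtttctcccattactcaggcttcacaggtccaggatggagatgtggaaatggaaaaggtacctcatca

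Kcnk2 (chr1:189207930-189402273, minus strand) encodes a mechanosensitive background potassium channel. It had 12.62 and 11.01 RPKM in Six2 libraries, against 4.928 and 5.287 RPKM in control libraries. Replicates were close in both groups. Of the related channels, Kcnk5 had 12.88 and 14.73 RPKM in Six2 libraries, against 18.31 and 18.57 RPKM in control libraries, the opposite direction (limma adjusted p = 0.207). Kcnk1 and Kcnk10 were listed at 0 in all libraries, and Kcnk4 and Kcnk6 did not exceed 0.056 RPKM. Tmem37 (chr1:120067377-120074074, minus strand) encodes a membrane protein related to the gamma subunits of voltage-gated calcium channels. It had 13.0 and 9.758 RPKM in Six2 libraries, against 4.493 and 3.099 RPKM in control libraries.

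Car9 (chr4:43506966-43513729, plus strand) encodes a carbonic anhydrase with its active site outside the cell, a classical target of hypoxia-inducible factors in tumours. It had 16.55 and 8.259 RPKM in Six2 libraries, against 2.936 and 2.633 RPKM in control libraries. Six2 replicate 1 was 2.00 times replicate 2, while the control replicates were close. Among 11 other hypoxia-inducible genes tested, 7 were above 0 on the log2(RPKM + 1) difference, the median was 0.18, and none was called in either direction. Egln3, an oxygen-sensing prolyl hydroxylase, had the largest difference in this list, with 107.0 and 85.38 RPKM in Six2 libraries against 60.57 and 59.06 RPKM in control libraries (limma adjusted p = 0.156). Vegfa had 29.41 and 22.64 RPKM in Six2 libraries, against 34.02 and 28.76 RPKM in control libraries, and Hk2 had 24.19 and 25.03 RPKM against 31.39 and 31.26 RPKM in the same order. Car12, another membrane carbonic anhydrase, had 3.882 and 3.347 RPKM in Six2 libraries, against 5.343 and 8.006 RPKM in control libraries (limma adjusted p = 0.218). The promoter of Car9 is shown for its known link to hypoxia. The window is chr4:43506776-43507075, plus strand, with 58.3% G or C. Capitals mark CCAAT at base 86, TGANTCA (the AP-1 motif) at base 174 and ACGTG (the core of the hypoxia response element) at base 233, the last on the opposite strand.
Car9: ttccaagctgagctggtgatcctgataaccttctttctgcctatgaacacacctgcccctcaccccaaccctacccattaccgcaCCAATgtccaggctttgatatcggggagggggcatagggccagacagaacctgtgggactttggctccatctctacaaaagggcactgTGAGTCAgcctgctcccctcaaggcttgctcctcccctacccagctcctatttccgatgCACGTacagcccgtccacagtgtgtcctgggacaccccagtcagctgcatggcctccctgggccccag

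Pcdh18 (chr3:49743296-49757325, minus strand), a protocadherin of the delta class of adhesion proteins, had 3.024 and 2.224 RPKM in Six2 libraries, against 0.8797 and 0.9009 RPKM in control libraries. Its listed relatives had lower values in the Six2 libraries or were under 0.03 RPKM in all. Pcdh7 had 2.847 and 2.372 RPKM in Six2 libraries, against 12.11 and 9.175 RPKM in control libraries (limma adjusted p = 0.0863). Pcdh1 had 22.09 and 22.65 RPKM in Six2 libraries, against 32.06 and 32.0 RPKM in control libraries (limma adjusted p = 0.141). Neither passed the test. Pcdh10, too low to be tested, had 0.1223 and 0.05407 RPKM in Six2 libraries, against 0.5781 and 0.34 RPKM in control libraries.

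Cmtm5 (chr14:54936261-54939274, plus strand), of the MARVEL-domain family of membrane proteins, had 3.152 and 2.302 RPKM in Six2 libraries, against 0.6776 and 0.4292 RPKM in control libraries. The family member Cmtm7 had 45.9 and 53.05 RPKM in Six2 libraries, against 32.97 and 40.87 RPKM in control libraries (limma adjusted p = 0.285). Tmem179 (chr12:112500189-112516747, minus strand), which encodes a transmembrane protein, had 5.581 and 3.887 RPKM in Six2 libraries, against 1.222 and 1.197 RPKM in control libraries. Both genes were higher in Six2 replicate 1 than in replicate 2.

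Among proteins inside the cell, Hunk (chr16:90386013-90499553, plus strand) encodes a serine/threonine kinase related to AMPK that was first described in mouse mammary tumours. It had 4.144 and 3.166 RPKM in Six2 libraries, against 0.602 and 0.4385 RPKM in control libraries, or 1293 reads in Six2 replicate 2 and at most 130 in a control library. Hunk lies on chromosome 16, whose tested genes had a median difference of -0.21, given with those of other chromosomes below. Its promoter window is shown as the GC-rich contrast to those of Gm14085 and Ndp, and because Hunk came next to them by ratio. It follows the RefSeq start. By the GENCODE position given above it lies inside the gene, and the GENCODE start is not covered. The window is chr16:90386147-90386446, plus strand, with 75.7% G or C, and capitals mark matches to GGGCGG, the GC box, at bases 123, 214 and 231.
Hunk: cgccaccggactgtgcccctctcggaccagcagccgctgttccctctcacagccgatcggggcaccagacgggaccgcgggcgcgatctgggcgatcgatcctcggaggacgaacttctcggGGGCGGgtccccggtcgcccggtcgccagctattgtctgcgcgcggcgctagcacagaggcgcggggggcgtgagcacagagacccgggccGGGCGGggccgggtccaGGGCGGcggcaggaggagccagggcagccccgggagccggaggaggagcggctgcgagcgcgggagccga

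Aim2 (chr1:173350879-173466040, plus strand) encodes a sensor of DNA in the cytosol that assembles an inflammasome with the adaptor Pycard and caspase-1. It had 5.402 and 5.425 RPKM in Six2 libraries, against 1.179 and 0.9223 RPKM in control libraries, with nearly equal Six2 replicates. Pycard was listed at 0 in all 4 libraries, and Nlrp3 did not exceed 0.006 RPKM. Casp1 had 143.5 and 50.33 RPKM in Six2 libraries, against 77.41 and 46.41 RPKM in control libraries, so its groups overlapped (limma adjusted p = 0.72). Gsdmd, the pore-forming substrate of caspase-1, had 6.588 and 4.731 RPKM in Six2 libraries, against 11.18 and 7.179 RPKM in control libraries (limma adjusted p = 0.346). Aim2 lies in a cluster of related interferon-inducible genes. Of 5 others tested there, 4 were above 0 on the log2(RPKM + 1) difference, the median was 0.21 and none was called. In 3 of the 5 both Six2 values lay above both control values, beside 21.9% of all tested genes. The tested genes of chromosome 1, which holds the cluster, had a median difference of 0.32. Ifi203 had 12.63 and 15.96 RPKM in Six2 libraries, against 9.139 and 10.91 RPKM in control libraries (limma adjusted p = 0.27). Ifi204, the only 1 of the 5 below 0, had 10.34 and 10.35 RPKM in Six2 libraries, against 14.95 and 11.29 RPKM in control libraries (limma adjusted p = 0.42). Copies in this cluster are similar in sequence, so the split of reads among them is uncertain.

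Rab27a (chr9:73044854-73097629, plus strand) encodes a small GTPase that brings lysosome-related organelles and exosomes to the plasma membrane. It had 3.68 and 3.864 RPKM in Six2 libraries, against 1.618 and 1.596 RPKM in control libraries, with the replicates of each group nearly equal. Its paralog Rab27b had 1.566 and 1.214 RPKM in Six2 libraries, against 1.353 and 1.164 RPKM in control libraries (limma adjusted p = 0.835). Effectors of the synaptotagmin-like family, Sytl1 to Sytl5, were under 0.5 RPKM in all libraries. Unc13d, an effector that docks secretory granules, had 2.652 and 2.26 RPKM in Six2 libraries, against 4.502 and 3.172 RPKM in control libraries (limma adjusted p = 0.305).

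Add2 (chr6:86028681-86124409, plus strand) encodes beta-adducin, which caps actin filaments and joins them to spectrin and is best known from red cells and brain. It had 26.44 and 21.61 RPKM in Six2 libraries, against 8.231 and 7.824 RPKM in control libraries. The other tested adducin and spectrin genes were not higher. Add1 had 45.73 and 43.53 RPKM in Six2 libraries, against 57.57 and 47.54 RPKM in control libraries. Add3 had 3.046 and 3.538 RPKM in Six2 libraries, against 5.757 and 4.582 RPKM in control libraries. All 6 tested genes of this list were below 0 on the log2(RPKM + 1) difference, with a median of -0.22, and none was called. The erythroid spectrin Sptb was listed at 0 throughout, and 5 erythroid markers summed to at most 0.0234 RPKM in any library.

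Evc (chr5:37289098-37336894, minus strand) encodes a protein at the base of the primary cilium that helps pass Hedgehog signals, and its loss in humans causes Ellis-van Creveld syndrome. It had 7.555 and 7.368 RPKM in Six2 libraries, against 3.464 and 3.029 RPKM in control libraries. Its partner Evc2, which lies 2 kb away, had 12.05 and 10.14 RPKM in Six2 libraries, against 8.763 and 7.248 RPKM in control libraries, a log2(RPKM + 1) difference of 0.43 ± 0.15 (SE, limma adjusted p = 0.272). The groups of Evc2 did not overlap, but the difference did not pass the test. The Hedgehog receptor and target Ptch1 had 3.346 and 4.71 RPKM in Six2 libraries, against 3.066 and 4.237 RPKM in control libraries (limma adjusted p = 0.84). Gli1, the usual readout of the pathway, was under 0.4 RPKM in every library.

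Metabolic enzymes and a few less studied genes complete the coding set. Aspg (chr12:112106679-112127559, plus strand), an asparaginase homolog, had 6.864 and 5.527 RPKM in Six2 libraries, against 2.377 and 2.159 RPKM in control libraries. Asns, which makes asparagine, had 20.2 and 30.33 RPKM in Six2 libraries, against 30.57 and 32.55 RPKM in control libraries (limma adjusted p = 0.495). Lyplal1 (chr1:186087731-186117310, minus strand) is a serine hydrolase related to lysophospholipases. It had 2.401 and 1.735 RPKM in Six2 libraries, against 0.6619 and 0.5753 RPKM in control libraries. Its relatives Lypla1 and Lypla2 had both Six2 values above both control values, as did 21.9% of all tested genes. Their log2(RPKM + 1) differences were 0.38 and 0.42, with limma adjusted p of 0.264 and 0.23. Tmcc2 (chr1:132356315-132391281, minus strand), an endoplasmic reticulum protein with coiled coils, had 11.03 and 9.457 RPKM in Six2 libraries, against 3.592 and 3.956 RPKM in control libraries. Tmcc3 had lower values in the Six2 libraries, with 1.436 and 2.168 RPKM in Six2 libraries and 3.049 and 3.199 RPKM in control libraries (limma adjusted p = 0.23). The acetyltransferase-family gene 1700019G17Rik, now Nat8f4 (chr6:85899051-85904884, minus strand), had 1.968 and 1.643 RPKM in Six2 libraries, against 0.7713 and 0.6556 RPKM in control libraries. Zfp11 (chr5:129654593-129670099, minus strand), a zinc finger gene, had 1.75 and 2.03 RPKM in Six2 libraries, against 0.6516 and 0.8475 RPKM in control libraries.

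Counted over all 18 groups of relatives and partners, which were listed after the members' names were known, 58 of 104 genes were tested. Their median log2(RPKM + 1) difference was 0.0164, with a range of -1.68 to 0.76. None of the 58 was called by limma without a replicate block after adjustment, beside 0.113% of all tested genes called in either direction. At an unadjusted p under 0.05 by limma there were 17 of 58 in either direction, a larger share than the 17.0% of all tested genes. Limma-voom on recovered reads called 0 of them after adjustment. Both Six2 values lay above both control values in 18 of the 58, a larger share than the 21.9% of all tested genes. Others of the 58 had both Six2 values below both control values, among them Pcdh7, Pcdh1, Kcnk5, Add1, Add3 and Hk2. No direction is read from this share. None of the 104 met the thresholds of the rule.

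The non-coding members fell into long and short loci. E330013P04Rik (chr19:60144675-60162591, plus strand) had 6.833 and 7.929 RPKM in Six2 libraries, against 3.362 and 3.011 RPKM in control libraries. D630033O11Rik (chr9:43243599-43280076, plus strand) had 1.85 and 1.881 RPKM in Six2 libraries, against 0.7678 and 0.5824 RPKM in control libraries. Gm10825 (chr10:22402883-22407470, plus strand) had 1.899 and 1.634 RPKM in Six2 libraries, against 0.561 and 0.798 RPKM in control libraries. These 3 long RNAs have no role that can be stated here. The 5 short loci rested on few reads, 5 to 30 in a Six2 library and 0 to 7 in a control library, whereas the other 24 members had 53 to 17189 reads in a Six2 library and 10 to 3462 in a control library.

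Snord57 and Snord71 are snoRNAs of the C/D class, which guide methylation of ribosomal RNA, and both lie inside protein-coding genes. Snord57 (chr2:130278016-130278087) had 6.043 and 5.841 RPKM in Six2 libraries, against 2.577 and 1.895 RPKM in control libraries, from 19 and 30 reads against 7 and 5. Nop56, which contains it and encodes a core protein of the same snoRNA particles, had 155.6 and 254.8 RPKM in Six2 libraries, against 151.7 and 225.7 RPKM in control libraries (limma adjusted p = 0.905). Nop56 was the higher in replicate 2 of each group, which Snord57 was not. Snord71 (chr8:109839295-109839379) had 2.818 and 1.725 RPKM in Six2 libraries, against 0.7249 and 0.3731 RPKM in control libraries, from 9 and 9 reads against 2 and 1. Its host Ap1g1, a clathrin adaptor subunit, had 16.64 and 15.87 RPKM in Six2 libraries, against 15.47 and 15.66 RPKM in control libraries (limma adjusted p = 0.807).

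The 3 miRNA loci likewise lie inside coding genes. Mature miRNAs are too short for libraries of this kind and carry no poly(A) tail, so the reads count longer RNA over the hairpin and do not measure the miRNA. Whether the reads at any of the 5 short loci came from the small RNA's precursor or from the gene around it was not tested. Mir6909 (chr10:79531029-79531090) had 3.232 and 3.759 RPKM in Six2 libraries, against 0 and 1.54 RPKM in control libraries, from 10 and 19 reads against 0 and 4. On its 62 bases the 0 allows up to 1.12 RPKM. Its host Ppap2c, a lipid phosphatase gene, had 79.73 and 82.2 RPKM in Six2 libraries, against 68.45 and 71.72 RPKM in control libraries (limma adjusted p = 0.347). Mir3060 (chr11:4139364-4139446) had 2.173 and 2.365 RPKM in Six2 libraries, against 0.8384 and 0.863 RPKM in control libraries, from 9 and 16 reads against 3 and 3. Its host Rnf215 had lower values in the Six2 libraries, with 6.168 and 5.721 RPKM in Six2 libraries and 7.021 and 6.857 RPKM in control libraries (limma adjusted p = 0.436). Mir6999 (chr2:91944870-91944930) had 1.642 and 2.011 RPKM in Six2 libraries, against 0.7605 and 0.3914 RPKM in control libraries, from 5 and 10 reads against 2 and 1. Its host Dgkz, a diacylglycerol kinase gene, had 40.0 and 37.04 RPKM in Six2 libraries, against 31.38 and 30.9 RPKM in control libraries (limma adjusted p = 0.246).

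The mature sequences of these miRNAs, from RefSeq on GRCm38.p6, are shown to let the loci be compared. Capitals mark the seed, bases 2 to 8, which pairs with target transcripts, and the 6 seeds all differ.
miR-3060-5p: gGGAGUGCuucgugcuucug
miR-3060-3p: cCAUAGCAcagaagcacuccca
miR-6909-5p: cAGGGGGGcuggaaugggcacu
miR-6909-3p: uGCCUUCCccggccucccacag
miR-6999-5p: aAGGAAGGagagucagcaagcac
miR-6999-3p: cUUCAGCUguccuccuuucugu

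**Figure D2:**
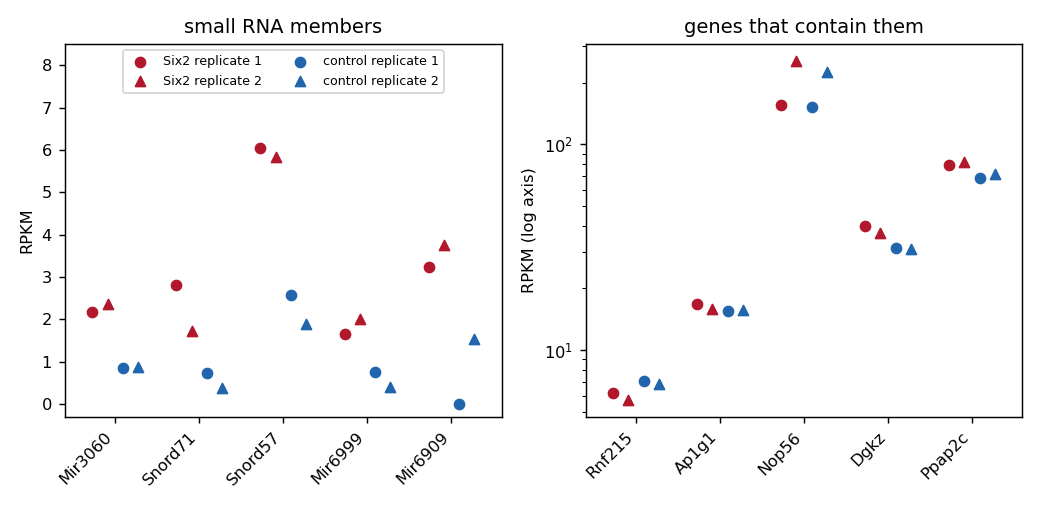
RPKM of the 5 short-RNA members (left, linear axis) and of the coding genes that contain them (right, log axis) in the Six2 libraries (red) and the control libraries (blue), with 1 point per library. The groups of every short locus are apart on the left, which the rule fixes. On the right the groups of Nop56 overlap and Rnf215 is lower in the Six2 libraries. Ap1g1, Ppap2c and Dgkz are higher there with no overlap, as are 21.9% of all tested genes.

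Position on the chromosomes was not used by the rule. Chromosome 1 held 6 members (Col9a1, Tmem37, Tmcc2, Aim2, Lyplal1 and Kcnk2), 20.7% of the group beside 5.61% of tested genes. It was also the chromosome whose tested genes were shifted most, with a median log2(RPKM + 1) difference of 0.32. Chromosome 12, with Aspg and Tmem179, had a median of 0.25, and chromosome 3, with Pcdh18, a median of 0.21. Chromosomes 1, 3 and 12 together held 9 members, 31.0% of the group beside 13.8% of tested genes. At the other end, chromosome 16, with Hunk, had the lowest median at -0.211, and chromosome 17, with no member, had -0.208. The 5 genes that met the thresholds and were left out by name are not counted in these shares. A chromosome with no member may hold 1 of them. The part of a whole-chromosome shift in these members' values was not tested beyond the following measurement. With each chromosome's median removed from the Six2 values, 23 of the 29 still met the thresholds. Aspg, Gm10825, Kcnk2, Lyplal1, Tmcc2 and Tmem37 no longer did, with ratios of 1.96, 1.97, 1.66, 2.09, 1.91 and 1.73 in that order, Lyplal1 because its lower Six2 value then fell under 1.5 RPKM. Of the chromosome 1 members, Col9a1 and Aim2 still met the rule.

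**Figure D3:**
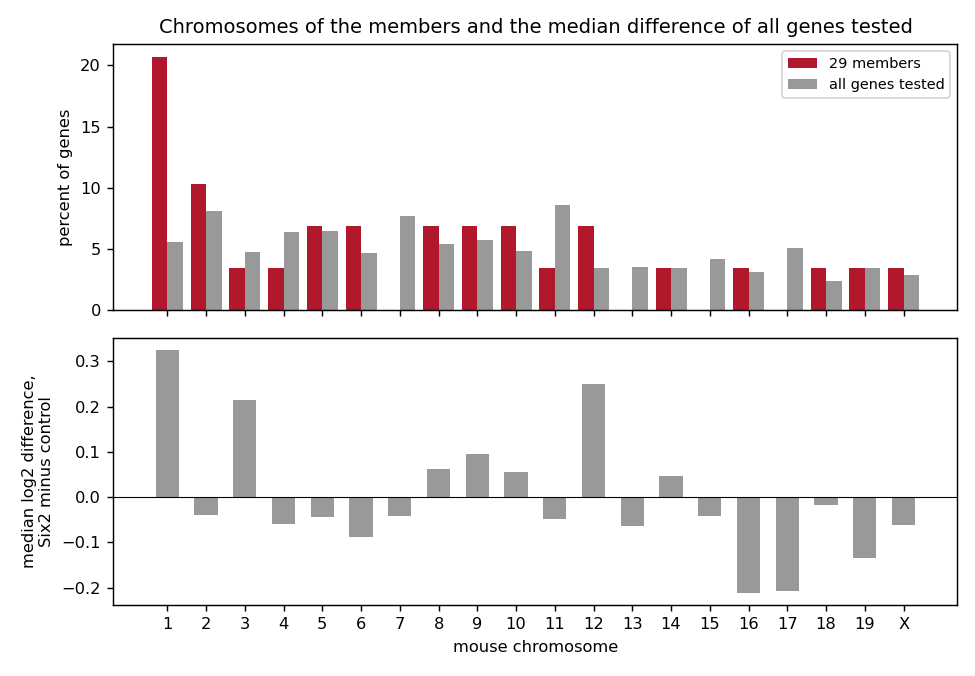
Above, the percent of the 29 members (red bars) and of all tested genes (grey bars) that lie on each mouse chromosome; below, the median log2(RPKM + 1) difference, Six2 minus control, over the tested genes of that chromosome. Chromosome 1 carries 20.7% of the members and the highest median, 0.32, and the 4 chromosomes with no red bar hold no member. Genes left out by name are not counted.

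Near each member, the 10 closest tested genes that did not meet the thresholds gave a local background. The median difference of these neighbours ran over -0.20 to 0.41 across the 29 members and was above 0 for 22 of them. It was highest around Lyplal1 at 0.41, Kcnk2 at 0.41 and Tmem179 at 0.40. A member's place above its neighbours follows largely from the rule, which chose the members for their gap and kept genes with such a gap out of the neighbours, so nothing is read from it. Only Pcdh18 and 1700019G17Rik did not lie above all 10, each with a neighbour at 1.07. For Pcdh18 that neighbour was the mitochondrial protein gene Mgarp. For 1700019G17Rik it was Tgfa, a ligand of the epidermal growth factor receptor that lies 71 kb from Add2, with 60.43 and 43.26 RPKM in Six2 libraries and 22.38 and 25.37 RPKM in control libraries (limma adjusted p = 0.141). Members also lay near each other: 1700019G17Rik and Add2 are 124 kb apart on chromosome 6, Aspg and Tmem179 are 373 kb apart on chromosome 12, and Lyplal1 and Kcnk2 are 3.09 Mb apart on chromosome 1. Next to Cmtm5, 10 kb away, Efs, an adaptor in Src signalling, had 1.852 and 1.257 RPKM in Six2 libraries, against 0.1364 and 0.1204 RPKM in control libraries. It missed the level threshold only. Next to Car9, 1 kb away, the muscle-type tropomyosin gene Tpm2 had 10.11 and 8.586 RPKM in Six2 libraries, against 6.66 and 4.415 RPKM in control libraries (limma adjusted p = 0.234).

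**Figure D4:**
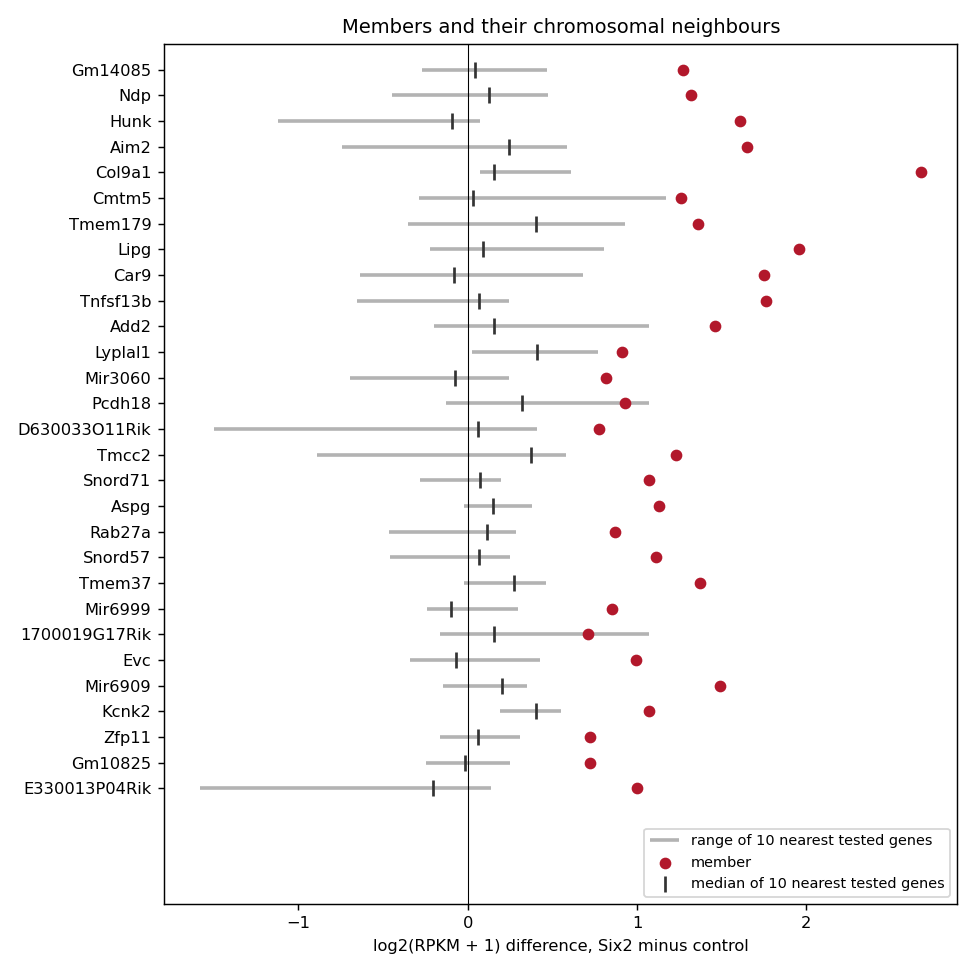
Log2(RPKM + 1) difference, Six2 minus control, of each member (red point) beside its 10 nearest tested genes that did not meet the thresholds (grey line for their range, black tick for their median). The red points lie to the right of the grey lines largely because of how both were chosen, with Pcdh18 and 1700019G17Rik as exceptions, and the ticks run over -0.20 to 0.41.

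Replicates of a group were within 1.5 times of each other in the Six2 libraries for 24 members. The other 5 were Col9a1 (2.91 times), Car9 (2.00), Tnfsf13b (1.98), Ndp (1.64) and Snord71 (1.63), and in each of these replicate 1 was the higher. Replicate 1 exceeded replicate 2 in 20 of the 29 members in the Six2 libraries and in 20 of the 29 in the control libraries. These are larger shares than the 50.8% and 52.6% of all tested genes in the same order. In 15 members it was the higher in both groups, and in 4 replicate 2 was. Krt8 and Casp1, given above, were likewise higher in replicate 1 of each group. The part of this replicate difference in the members' values was not tested. The rule read without Six2 replicate 2, the deepest library, was met by 107 genes, and without Six2 replicate 1 by 40; leaving out control replicate 1 gave 57 and control replicate 2 gave 69. Each of those sets holds all 29 members by construction, and the same genes named above stay left out.

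**Figure D5:**
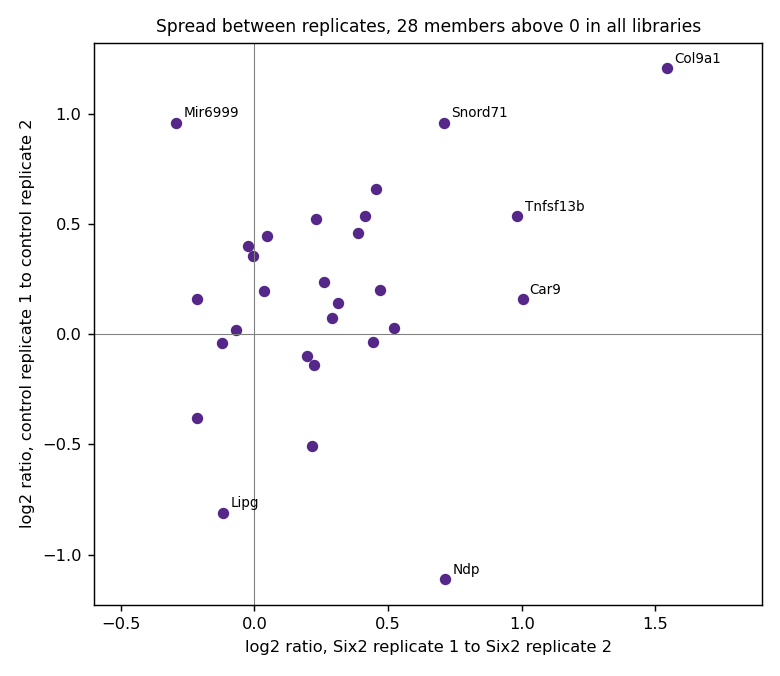
Log2 ratio of replicate 1 to replicate 2 in the Six2 libraries (horizontal axis) and in the control libraries (vertical axis), with 1 point for each of the 28 members above 0 in all 4 libraries. The 15 points at upper right are higher in replicate 1 of each group, with Col9a1 the farthest out, and Ndp, at lower right, is higher in replicate 1 of the Six2 libraries and in replicate 2 of the control libraries.

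Promoters were read for the 23 members found in the RefSeq table, with 34 windows in all since some genes have several starts, beside 32851 windows of all genes. Windows of 1 gene can overlap and are not independent. The median G or C content was 54.7% in members' windows and 52.7% in all. The letters were searched on both strands, with TGANTCA and ACGTG able to share bases. CCAAT was found in 17 of the 34 windows, beside 37.4% of all windows. GGGCGG was found in 13, or 38.2% beside 35.7%. The AP-1 letters TGANTCA were found in 5, or 14.7% beside 7.81%, at Car9, Kcnk2, Tmem37 and Tnfsf13b. ACGTG was found in 4, or 11.8% beside 19.6%, at Car9, Lyplal1, Rab27a and Tmem179. TCAGGTT, the letters searched for Six2 itself, was found in 2, or 5.88% beside 4.07%, at Evc and Lyplal1. TATAAA was found in 2, or 5.88% beside 13.6%, at Ndp and 1700019G17Rik. These shares are descriptions of the windows, with no binding measured.

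The group held no gene of the 16 gene and marker lists used for this series. That count follows in part from the choice, since 3 of the lists (class I antigen processing, milk proteins, small heat shock proteins and chaperones) each hold 1 gene that met the thresholds and is left out by name. Among interferon-stimulated genes, 9 of 20 tested were above 0, with a median log2(RPKM + 1) difference of -0.043, and none was called in either direction, while Aim2 and Tnfsf13b, both known to respond to interferon, are outside that list. Among genes of class I antigen processing, 10 of 17 tested were above 0 with a median of 0.045, and none was called. Of 12 genes of the families of Six2, Eya1 and Dach1, 6 were tested, 3 of them above 0, with a median of 0.28 and no call. Of 18 nephron progenitor genes only 4 could be tested, 3 of them above 0, with a median of 0.15 and no call.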

How the data were processed

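RNA-seq of 4 libraries, 2 labelled Six2 and 2 labelled control, was analysed from a table of RPKM values for 24421 genes that the authors deposited. Per the submitters' processing notes, HTSeq 0.8.0 was among the tools, with TopHat2 2.1.1, SAMtools 1.5, Picard 2.9.4, FastQC 0.11.5, bcl2fastq 1.8.4 and Bowtie2, and the genome was GRCm38 or mm10. Annotation, gene lengths and strand setting were not given in those notes. Values of overlapping genes and of near-identical copies are therefore uncertain.

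Columns were matched to samples by name, and 0 other columns were left unused. The RPKM values step by whole reads. Read totals were recovered from these steps, and all 14459 genes above 0 in at least 3 libraries came out whole within 0.001 reads. Reads and length of a gene that share a divisor would hide it, so a read number can be too low. The 10654 genes that reached 1 RPKM in 2 or more libraries entered a two-sided limma 3.58.1 trend fit on log2(RPKM + 1) in R 4.3.3. The threshold was 0.05 after Benjamini-Hochberg adjustment. A run on simulated reads had no effect shared by replicate number, so it cannot show how the fit performs on these libraries. The values were described as RPKM, so the limma trend fit was used in place of a count test. Alternatives were limma-voom on the recovered reads, relative log expression factors, removal of chromosome medians, pseudocounts, filters, a replicate block and leaving out each library. Python 3.11.15 was used for the rest.

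Members followed the rule stated in the opening, and every member could be named. They, the gene lists and the rule for naming were chosen with earlier results of these data known. The lists of relatives were drawn up after the members' names were seen. Positions are from GENCODE M21 on GRCm38, in which 28 members matched by symbol and 1 by an older symbol. Promoter and miRNA sequences are from RefSeq on GRCm38.p6, whose gene starts can differ from those of GENCODE.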

Additional observations from a re-analysis of the deposited data

How the results depend on the processing

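The number of members was 29. It was 17 at a level of 3 RPKM, 38 at 1 RPKM, 13 with controls at most 0.4 times and 108 with controls at most 0.67 times the lower Six2 value, 28 with chromosome medians removed (23 shared) and 30 with relative log expression factors (29 shared). Leaving out 1 library gave 40 to 107. The members' median log2 difference of 1.13 was 1.56 with a pseudocount of 0.1, 1.33 with 0.5, 1.15 with relative log expression factors, 1.05 with chromosome medians removed and 1.09 to 1.31 without 1 library. No single-member value changed sign, which the rule largely fixes, since it keeps every Six2 value above every control value. The all-gene count of 12 calls (3 higher, 9 lower) was 0 without the filter, where 2503 genes passed at an unadjusted p under 0.05 by limma. It was 12 with a pseudocount of 0.1, 11 with relative log expression factors, 9 with chromosome medians removed, 13 with limma-voom and 11 to 68 without 1 library. The replicate block gave 4639 calls (2133 higher, 2506 lower) among 10654 tested genes. All 29 members were among the higher ones, and nothing is read from that, since the same contrast chose them. The labels do not say that replicate numbers pair the samples, and the deviations of same-numbered libraries correlated at r = 0.818 across genes, a hint from the data only. With 2 libraries a group, spread is poorly known, and the 5 short loci are limited by their read numbers.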

Other observations

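Several genes with little or no RNA in the control libraries stood under the level threshold of the 29. With a lower Six2 value of at least 0.5 RPKM and at least 4 times the higher control value, 14 more of 24421 genes appeared. Of these, 10 were protein-coding and 4 were short RNA loci. The short loci had at most 5 reads in a Six2 library and 0 in a control library. A count for the same cut turned round is not given here. The coding genes are named after their values were seen, and none of the 14 carries a test. Dnajc5b, a relative of the synaptic chaperone CSP-alpha, had 0.9568 and 1.034 RPKM in Six2 libraries, against 0.02172 and 0 RPKM in control libraries, from 51 and 90 reads against 1 and 0. Nos1, neuronal nitric oxide synthase, had 1.031 and 0.5605 RPKM in Six2 libraries, against 0.03589 and 0.02709 RPKM in control libraries. Mid2, a ubiquitin ligase that binds microtubules, had 1.463 and 1.068 RPKM in Six2 libraries, against 0.09018 and 0.06054 RPKM in control libraries. Each of these was a gene with a clear gap between the groups at a low level.

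Cdh19, a cadherin known from Schwann cell precursors, had 1.955 and 0.9599 RPKM in Six2 libraries, against 0.1595 and 0.07818 RPKM in control libraries. Tceal8 had 0.7647 and 0.5046 RPKM in Six2 libraries, against 0.03935 and 0.0405 RPKM in control libraries. Zfp365 had 1.247 and 1.21 RPKM in Six2 libraries, against 0.1907 and 0.157 RPKM in control libraries. Mgarp, a mitochondrial protein gene, had 1.893 and 1.047 RPKM in Six2 libraries, against 0.2435 and 0.08354 RPKM in control libraries. Dppa2, a gene of pluripotent cells, had 1.012 and 0.8026 RPKM in Six2 libraries, against 0.1554 and 0.123 RPKM in control libraries. The gene 2610524H06Rik had 1.972 and 1.298 RPKM in the Six2 libraries, from 93 and 100 reads, and 0 reads in either control library. Efs, the neighbour of Cmtm5 described in the report, completes the coding genes.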
